A study of Mus musculus with 14 samples.

Results

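The genes described here are the chaperones and heat shock proteins of the mouse, 82 of the 46959 gene entries in a table of read counts. They were chosen by name: the Hspa, Hspb, Hspd, Hspe and Hsph genes, the Hsp90 genes, the numbered J protein genes (Dnaja, Dnajb and Dnajc), the Cct genes with Tcp1, and the heat shock factors Hsf1 and Hsf2. Another 9 names that end in -ps, the mark of a pseudogene, were dropped. By where their proteins are known to work, 47 of the genes were placed in the cytosol and nucleus, 13 in the endoplasmic reticulum (ER), 9 in mitochondria and 11 elsewhere or in an unsure place, and the 2 heat shock factors were kept apart as regulators.

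The genes were followed in 14 RNA libraries of Eµ-Myc lymphoma, a model in mice whose B-lineage cells turn malignant under a Myc transgene driven by the immunoglobulin heavy chain enhancer. One library came from the lymph node lymphoma of a C57BL/6 wild-type mouse engrafted with cells of line 506 and given L-asparaginase (ASNase), an enzyme that destroys asparagine, from day 7 until the endpoint of disease. One came from the lymphoma of a like mouse given vehicle (0.9% NaCl). The other 12 came from cultured lines, each from a different Eµ-Myc transgenic mouse (115, 136, 309, 504, 505, 506, 517, 524, 549, 649, 688 and 801), grown for 24 h in medium with 10% serum, 0.37 mM L-asparagine and 50 µM 2-mercaptoethanol. All 14 libraries thus carry the Myc transgene, and both lymphomas descend from 1 line. The hosts keep their own stroma and immune cells, and the labels do not say whether tumour cells were sorted from them.

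Chaperones bind unfolded proteins and help them to fold, to cross membranes or to be degraded. Hsp70 proteins hold short exposed stretches with the help of J proteins, Hsp90 proteins finish the folding of kinases and receptors, and the TRiC ring (the Cct proteins and Tcp1) folds actin and tubulin inside its chamber. Mitochondria have their own ring, Hsp60 (Hspd1) with its lid Hsp10 (Hspe1), and the ER has its own Hsp70 and Hsp90, BiP (Hspa5) and Grp94 (Hsp90b1), which serve secreted and membrane proteins such as immunoglobulins. Hsf1 is the main activator of the cytosolic set under heat, while the ER set answers to the unfolded protein response.

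Total counts were 25690935 in the ASNase lymphoma, 27715832 in the vehicle lymphoma and 24597230 to 32614751 in the lines. Levels are given in CPM, read counts scaled to the size of the library with TMM factors, and comparisons between genes in RPKM, which divides CPM by the gene's length in kb. In the lymphomas the summed level of 8 fibroblast markers was 2220 CPM with ASNase and 847 CPM with vehicle, against at most 2.04 CPM in any line, and 8 of 8 were called higher. Macrophage markers summed to 727 and 354 CPM, against 2.84 to 64.6 CPM in the lines (7 of 8 called higher). Endothelial markers summed to 170 and 246 CPM against 31.3 to 167 CPM (3 of 6), T cell markers to 15.6 and 64.7 CPM against 0.725 to 41.1 CPM (5 of 8), and neutrophil markers to 11.4 and 18.6 CPM against at most 0.167 CPM (5 of 5 tested). All 8 fibroblast markers were detected in both lymphomas, and 3 of them had no count in any line. Of 5 plasma cell markers tested 2 were called higher, and the 6 markers summed to 266 and 261 CPM against 162 to 1070 CPM. The 10 pan-B cell markers, the check of the labelled cell type, summed to 3196 CPM in the ASNase lymphoma and 4205 CPM in the vehicle lymphoma, against 2319 to 3672 CPM in the lines, and 0 of 10 were called. Fewer cells of a type and less RNA per cell cannot be told apart in such bulk libraries, and the part of the host cells in the results on chaperones was not tested.

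In the cultured lines the cytosolic chaperones far outweighed the others. Their summed level was 5048 ± 482 RPKM (SD, n = 12), against 1165 ± 233 RPKM for the mitochondrial and 479 ± 117 RPKM for the ER chaperones. The highest levels per length were those of Hsp90ab1, the constitutive cytosolic Hsp90, at 1636 RPKM, of Hspd1 at 626 RPKM, of the constitutive Hsp70 Hspa8 at 551 RPKM and of Hsp90aa1, the inducible Hsp90, at 447 RPKM. In the mitochondria Hspd1 was followed by the mitochondrial Hsp70, Hspa9, at 294 RPKM and by Hspe1 at 161 RPKM. In the ER Hsp90b1 led at 228 RPKM, before Hspa5 at 132 RPKM and Dnajb11, a J protein that works with BiP, at 42.8 RPKM. The stress-inducible Hsp70 genes were low: Hspa1a and Hspa1b had means of 3.91 and 7.64 CPM over the lines. They are near-identical copies whose reads the counting may have split, so their values are uncertain.

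The first comparison asks how the chaperones of the lymphomas differ from those of cells in culture. In the lymphomas 21 of 38 cytosolic and 4 of 9 mitochondrial genes tested were called lower, and in the ER 1 of 13 was called lower and 1 higher. Of the 82 genes 70 passed the filter on low counts, which 7 of them (Dnaja4, Dnajb13, Dnajb14, Dnajc12, Hspa12b, Hspb1 and Hspb8) would not have passed on the lines alone, and none of these 7 was called. edgeR's quasi-likelihood test, with Benjamini-Hochberg adjustment over all 17450 genes tested and a threshold of 0.05, called 27 of the 70 lower and 2 higher. Over all genes tested 11.1% were called lower and 13.4% higher. The median log2 fold change was -0.59 over the 70 genes and -0.01 over all genes tested. Abundant genes as a class were lower in the lymphomas. Among the 2435 genes with a mean of at least 100 CPM over the 14 libraries, 37.4% were called lower and 50 genes higher, with a median log2 fold change of -0.48. Of the 30 chaperones in that class 24 were called lower and 0 higher. By compartment the lower calls were 20 of 21 cytosolic, 3 of 4 mitochondrial, 0 of 3 ER and 1 of 2 genes placed elsewhere. Without the ASNase lymphoma 16 of the 70 genes were called lower and 1 higher, and with all libraries scaled to the pan-B cell markers 14 and 0. Calls lost under that scaling include Hspd1, Hspa8, Hsp90ab1 and the TRiC genes Cct2, Cct4 and Cct5, with adjusted p of 0.0511 to 0.0644, although their log2 fold changes were then -1.70 to -2.53 beside a median of -1.05 over all genes.

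The median log2 fold change was -0.75 over the 38 cytosolic and nuclear genes, -0.59 over the 9 mitochondrial genes and -0.22 over the 13 ER genes, and none of the cytosolic or mitochondrial genes was called higher. The mitochondrial median was -0.86 without the vehicle lymphoma and -0.31 without the ASNase lymphoma, and the ER median then -0.24 and -0.31. Among the 8 genes placed elsewhere 1 was lower and 1 higher. The difference between compartments was not tested, and it was not separated from level. Genes with a mean of at least 100 CPM made up 21 of the 38 cytosolic, 4 of the 9 mitochondrial and 3 of the 13 ER genes. Both lymphomas lay below all 12 lines for 28 of the 70 genes (12.5% of all genes tested) and above all of them for 3, Dnajc4, Dnajc14 and Dnajc16 (19% of all genes tested). Among the 2435 genes with a mean of at least 100 CPM, 929 lay below all lines and 64 above. A lack of overlap was thus common in this class, whose mean rests mostly on the lines. Of the 28, 20 were cytosolic, 4 in the ER, 3 mitochondrial and 1, the endosomal Dnajc13, elsewhere. Dnajc13 was called lower (-0.80, adjusted p = 0.0183), and was not without vehicle (0.148) or without ASNase (0.0771).

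**Figure D1:**
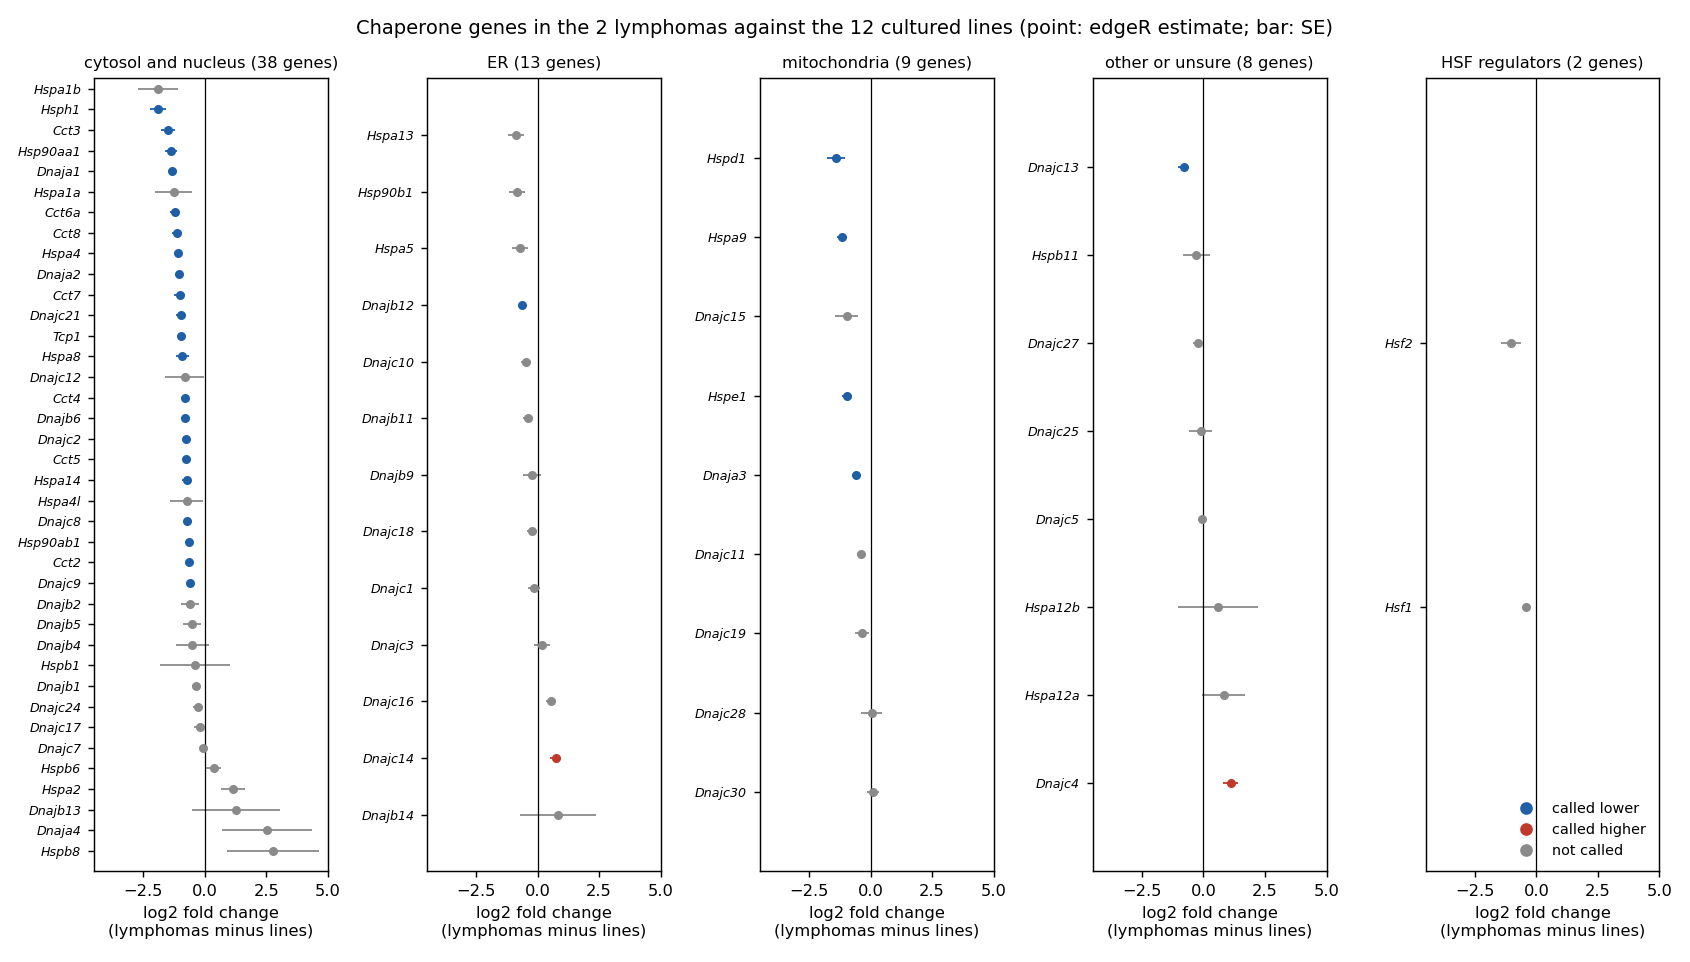
Log2 fold change of the 70 chaperone genes tested, both lymphomas against the 12 lines, as the edgeR estimate with its SE, in a panel per compartment (colours mark calls at an adjusted p under 0.05). The 21 cytosolic and 4 mitochondrial calls lie left of 0, and the ER panel holds 1 call on either side.

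All 8 subunits of the TRiC ring that were tested were called lower, with a median log2 fold change of -0.998. Both lymphomas lay below all 12 lines for each of them. All 8 had a mean of at least 100 CPM, and of the 2435 genes at that level 37.4% were called lower and 929 lay below all lines. Cct6b, a testis form of a subunit, had at most 8 counts in any library and was not tested. Tcp1, the alpha subunit (mm10, chr17:12915701-12925067, plus strand), stood at 434 CPM in the ASNase lymphoma and 458 CPM in the vehicle lymphoma, against 752 CPM in the lowest line (801), a median of 864 CPM and 1032 CPM in the highest (506). The lymphomas did not overlap the lines, and the log2 fold change was -0.97 (SE 0.13, edgeR adjusted p = 0.000206). Cct6a had 282 and 292 CPM in the ASNase and vehicle lymphomas, against 524 to 875 CPM in the lines with a median of 657 CPM (a log2 fold change of -1.22, SE 0.18, edgeR adjusted p = 0.000517). Cct8 had 429 and 423 CPM, against 691 to 1150 CPM with a median of 942 CPM (-1.12, SE 0.20, edgeR adjusted p = 0.00156). Cct5, with 432 and 467 CPM against 668 to 886 CPM and a median of 755 CPM, moved less (-0.76, SE 0.12, edgeR adjusted p = 0.000955), and the ranges again did not meet. Of the other subunits Cct3 had the largest change (-1.496) and Cct2 the smallest (-0.62). Exons of Tcp1, Cct6a, Cct7 and Cct8 overlap those of a gene on the opposite strand, so part of these counts is uncertain. With scaling to the pan-B cell markers Cct2, Cct4 and Cct5 were not called, and with total count scaling Cct2 was not. The call of Cct2 was lost when either lymphoma was left out (adjusted p = 0.112 without vehicle and 0.0729 without ASNase), and that of Cct7 without the ASNase lymphoma (0.0541).

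Both cytosolic Hsp90 genes fell. Hsp90aa1 (mm10, chr12:110690605-110702728, minus strand) had 661 CPM in the ASNase lymphoma and 698 CPM in the vehicle lymphoma, against 1161 CPM in the lowest line (504), a median of 1784 CPM and 2504 CPM in the highest (115). Both lymphomas were thus below all lines, with a log2 fold change of -1.37 (SE 0.25, edgeR adjusted p = 0.00172). Hsp90ab1, the most abundant chaperone, had 3056 and 3192 CPM in the ASNase and vehicle lymphomas, against 3921 to 5624 CPM in the lines with a median of 5006 CPM. Its log2 fold change of -0.65 (SE 0.16, edgeR adjusted p = 0.00982) was called with both lymphomas, but missed the threshold without the vehicle lymphoma (adjusted p = 0.0568) or without the ASNase lymphoma (0.0824).

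Among the cytosolic Hsp70 and Hsp110 genes, Hspa4, an Hsp110 protein that frees ADP from Hsp70 (mm10, chr11:53259814-53300457, minus strand), had the smallest adjusted p of the whole set. It had 282 CPM in the ASNase lymphoma and 312 CPM in the vehicle lymphoma, against 552 to 727 CPM in the lines with a median of 634 CPM (a log2 fold change of -1.10, SE 0.14, edgeR adjusted p = 0.000167). Hsph1, the heat-inducible Hsp110 (mm10, chr5:149614287-149636376, minus strand), had the largest called decrease: 41.5 CPM in the ASNase lymphoma and 94.7 CPM in the vehicle lymphoma, against 156 CPM in the lowest line (524), a median of 242 CPM and 315 CPM in the highest (506). Its log2 fold change was -1.89 (SE 0.32, edgeR adjusted p = 0.00111), and -1.30 with an adjusted p of 0.0664 without the ASNase lymphoma. Hspa8 had 954 CPM in the ASNase lymphoma and 1577 CPM in the vehicle lymphoma, against 1575 CPM in the lowest line (801), a median of 2209 CPM and 3107 CPM in the highest (505). The vehicle lymphoma therefore met the lowest line. The call of Hspa8 (log2 fold change -0.90, SE 0.25, edgeR adjusted p = 0.0200) was lost without the ASNase lymphoma (adjusted p = 0.344) and under total count scaling (0.0549). Hspa14, an Hsp70 protein that sits at the ribosome, was also called lower (-0.73), and was not when either lymphoma was left out (adjusted p = 0.0513 without vehicle and 0.0689 without ASNase). Hspa2, Hspa1a, Hspa1b and Hspa4l were not called.

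J proteins, which hand clients to Hsp70 and start its ATP cycle, were called in both directions. Over all compartments 10 of 38 tested were called lower and 2 higher, against 11.1% and 13.4% of all genes tested. Of the 11 J proteins with a mean of at least 100 CPM 7 were called lower, against 37.4% of all 2435 genes at that level. Dnaja1 and Dnaja2, the main cytosolic partners of Hspa8, were called with small errors. Dnaja2 had 144 and 146 CPM in the ASNase and vehicle lymphomas, against 234 to 338 CPM in the lines with a median of 310 CPM (a log2 fold change of -1.06, SE 0.14, edgeR adjusted p = 0.000247). Dnaja1 had 89.7 and 104 CPM, against 184 to 291 CPM with a median of 233 CPM (-1.31, SE 0.18, edgeR adjusted p = 0.000269), and its exons overlap those of Smu1 on the opposite strand. Neither gene overlapped between lymphomas and lines. Dnajb6, Dnajc2, Dnajc8, Dnajc9 and Dnajc21 were also lower, with log2 fold changes of -0.59 to -0.98. The call of Dnajb6 was lost without the vehicle lymphoma (adjusted p = 0.0833) and that of Dnajc9 without the ASNase lymphoma (0.0948), and Dnajb1, a heat-inducible partner of Hspa8, was not called at all (-0.34, adjusted p = 0.166). Dnajc7, a co-chaperone that binds Hsp70 and Hsp90, had 206 and 261 CPM in the ASNase and vehicle lymphomas, against 210 to 272 CPM in the lines, with a log2 fold change of -0.06. In the small heat shock proteins 0 of 4 tested were called, and 4 more, with at most 9 counts in any library, were not tested.

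The mitochondrial Hsp60 and Hsp10, the ring and its lid, fell together. Hspd1 had 595 CPM in the ASNase lymphoma and 667 CPM in the vehicle lymphoma, against 911 CPM in the lowest line (504), a median of 1908 CPM and 2215 CPM in the highest (115). Hspe1 had 110 and 139 CPM in the ASNase and vehicle lymphomas, against 166 CPM in the lowest line (504), a median of 236 CPM and 297 CPM in the highest (649). For both genes the lymphomas lay below all 12 lines. The log2 fold change was -1.39 for Hspd1 (SE 0.37, edgeR adjusted p = 0.0168) and -0.94 for Hspe1 (SE 0.20, edgeR adjusted p = 0.00457). Hspd1 varied widely among the lines, and its call was lost without the vehicle lymphoma (adjusted p = 0.0842) and without the ASNase lymphoma (0.116), at log2 fold changes of -1.47 and -1.31. The call of Hspe1 was lost without the ASNase lymphoma (0.0827, log2 fold change -0.78). A processed copy, Hspd1-ps3, held 14844 counts over the 14 libraries, so a small part of the Hspd1 reads may have been counted there.

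Hspa9, the mitochondrial Hsp70 that pulls proteins through the inner membrane, had 510 CPM in the ASNase lymphoma and 525 CPM in the vehicle lymphoma, against 881 CPM in the lowest line (524), a median of 1118 CPM and 1489 CPM in the highest (504). It fell by 1.16 on the log2 scale (SE 0.21, edgeR adjusted p = 0.00161), with no overlap. Its J partner Dnaja3 was called lower (-0.59, adjusted p = 0.0322), but the vehicle lymphoma (82.0 CPM) lay above the lowest line (80.8 CPM) and the call was lost without the ASNase lymphoma (0.487). The other 5 mitochondrial J proteins, Dnajc11, Dnajc15, Dnajc19, Dnajc28 and Dnajc30, were not called. Their log2 fold changes ran from -0.97 for Dnajc15 to 0.09 for Dnajc30.

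Hspd1 and Hspe1 lie head to head on chromosome 1 of the mm10 build, Hspd1 on the minus strand (chr1:55077835-55088243) and Hspe1 on the plus strand (chr1:55088132-55091307). Their deposited exons share 112 bases on opposite strands. The RefSeq promoter windows of this pair, 250 bases before to 50 after the start, share 285 bases. The part of the Hspe1 window before the start is shown because 1 stretch serves both genes, with 2 overlapping matches to a heat shock element in capitals (GRCm38.p6, chr1:55087898-55088147, plus strand).
Hspe1: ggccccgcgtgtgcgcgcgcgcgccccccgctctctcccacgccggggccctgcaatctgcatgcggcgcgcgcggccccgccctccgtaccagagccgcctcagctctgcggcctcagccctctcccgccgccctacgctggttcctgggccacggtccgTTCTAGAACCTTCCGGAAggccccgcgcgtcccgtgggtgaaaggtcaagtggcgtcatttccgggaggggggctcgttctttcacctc
The element was searched on both strands as GAANNTTCNNGAA. It occurred in the windows of 4 of the 67 chaperone genes with a RefSeq window, Hspd1, Hspe1, Hsph1 and Dnajb6. Over all 27025 genes with a window the share was 0.662%. Hspd1 and Hspe1 are counted here for the same shared stretch. A match is a run of letters and says nothing of binding by Hsf1 in these cells. The factor itself, Hsf1, had 47.4 CPM in the ASNase lymphoma and 71.1 CPM in the vehicle lymphoma, against 62.2 to 88.0 CPM in the lines with a median of 80.7 CPM. With the vehicle lymphoma inside the range of the lines it was not called (log2 fold change -0.41, SE 0.15, edgeR adjusted p = 0.0570). Without the vehicle lymphoma it was (-0.70, adjusted p = 0.0447), and without the ASNase lymphoma its log2 fold change was -0.12. Hsf2, a second factor that binds the same element, had 9.69 and 7.70 CPM, against 8.58 to 30.8 CPM with a median of 17.1 CPM (-1.04, SE 0.42, edgeR adjusted p = 0.0837).

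**Figure D2:**
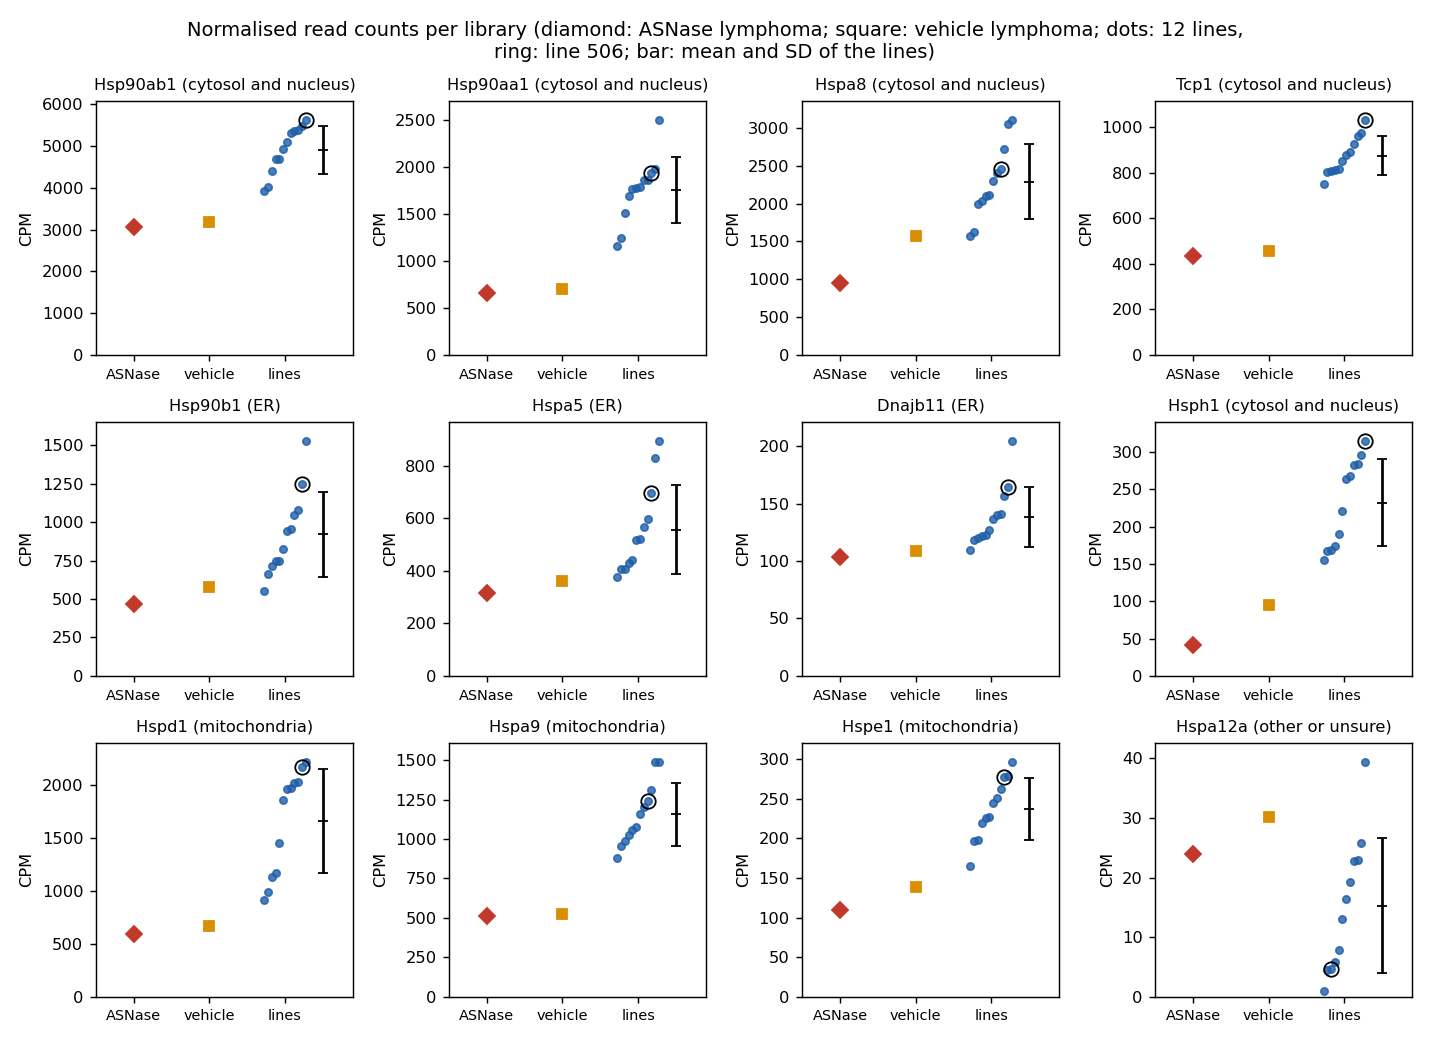
CPM of 12 chaperone genes in every library, with the ASNase lymphoma (diamond), the vehicle lymphoma (square) and the 12 lines (dots, line 506 ringed, bar for their mean and SD). Hspd1, Hspe1, Hspa9, Tcp1 and both cytosolic Hsp90 genes lie below all lines in both lymphomas, whereas Hsp90b1 meets the lowest line.

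The chief ER chaperones were not called, although their levels in the lymphomas lay near or below the lowest lines. Hspa5 had 314 CPM in the ASNase lymphoma and 359 CPM in the vehicle lymphoma, against 378 CPM in the lowest line (309), a median of 518 CPM and 894 CPM in the highest (688). Both lymphomas were below all lines, and the log2 fold change of -0.73 (SE 0.32) missed the threshold (edgeR adjusted p = 0.117). Hsp90b1 had 469 and 576 CPM in the ASNase and vehicle lymphomas, against 550 CPM in the lowest line (517), a median of 884 CPM and 1530 CPM in the highest (688). The vehicle lymphoma lay inside the range of the lines, with a log2 fold change of -0.83 (SE 0.33, edgeR adjusted p = 0.0805). Dnajb11 had 103 and 109 CPM, against 110 to 205 CPM with a median of 132 CPM (-0.39, SE 0.20, edgeR adjusted p = 0.182). The log2 fold changes of Hspa5 and Hsp90b1 were as large as that of Hsp90ab1 (-0.65), which was called, but their SEs were 0.32 and 0.33 against 0.16. A missed threshold does not show that the ER chaperones stayed level.

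The ER genes that were called are J proteins of lower abundance. Dnajb12, which sits in the ER membrane and works with cytosolic Hsp70 in degradation, had 42.5 CPM in the ASNase lymphoma and 38.9 CPM in the vehicle lymphoma, against 49.7 to 73.6 CPM in the lines with a median of 63.0 CPM (a log2 fold change of -0.62, SE 0.14, edgeR adjusted p = 0.00607). Its call was lost without the vehicle lymphoma (adjusted p = 0.0735). Dnajc14 had 53.4 and 52.6 CPM, against 21.1 to 43.5 CPM with a median of 31.3 CPM, and was called higher (0.74, SE 0.22, edgeR adjusted p = 0.0299). It shares 1559 exon bases with Ormdl2 on the opposite strand, which makes this value uncertain. The other increase was in Dnajc4, with 5.95 and 8.05 CPM against 1.88 to 4.30 CPM and a median of 3.39 CPM (1.10, SE 0.29, edgeR adjusted p = 0.0166). For both genes the lymphomas lay above all lines. Neither increase was called when the vehicle lymphoma was left out (adjusted p = 0.126 for Dnajc14 and 0.173 for Dnajc4), that of Dnajc14 was lost also without the ASNase lymphoma (0.134), and scaling to the pan-B cell markers put Dnajc14 at -0.28 and Dnajc4 at 0.04.

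The promoters of Hspa5 and Hsp90b1 are shown because the pair moved together among the lines, and because both hold the ER stress element, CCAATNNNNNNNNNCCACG on either strand, in capitals below. They are the 250 bases before the RefSeq start, for Hspa5 at chr2:34771840-34772089 (plus strand) and for Hsp90b1 at chr10:86705445-86705694 (minus strand), GRCm38.p6.
Hspa5: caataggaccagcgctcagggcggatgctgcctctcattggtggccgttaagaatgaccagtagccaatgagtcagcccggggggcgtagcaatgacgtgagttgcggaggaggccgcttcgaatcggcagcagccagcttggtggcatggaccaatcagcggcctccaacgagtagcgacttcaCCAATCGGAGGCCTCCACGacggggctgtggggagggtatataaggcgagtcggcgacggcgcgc
Hsp90b1: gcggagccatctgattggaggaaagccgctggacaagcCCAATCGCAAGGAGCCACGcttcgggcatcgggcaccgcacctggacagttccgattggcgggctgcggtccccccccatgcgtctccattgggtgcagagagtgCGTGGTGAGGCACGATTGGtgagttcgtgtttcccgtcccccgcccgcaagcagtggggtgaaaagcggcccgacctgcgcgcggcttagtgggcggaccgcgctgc
Of the 67 chaperone genes with a window only these genes and Dnajc3 matched it, beside 0.137% of all 27025 genes with a window. Here too a match is a run of letters and says nothing of binding or use in these cells. Dnajc3, an ER J protein that restrains the kinase PERK, was not called (log2 fold change 0.19, adjusted p = 0.727).

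Other genes of folding and of the stress responses were read from lists. Over all genes tested 11.1% were called lower and 13.4% higher. Among the 2435 genes of at least 100 CPM on average 37.4% were lower, with a median log2 fold change of -0.48. Of list genes in that class, 8 of 10 cytosolic helpers, 4 of 8 mitochondrial partners and 1 of 15 ER partners were called lower. Of 27 cytosolic co-chaperones and folding helpers 16 were called lower and 0 higher (median log2 fold change -0.80). Among them Ptges3, the Hsp90 co-chaperone p23, had 134 and 132 CPM in the ASNase and vehicle lymphomas and 306 ± 41.9 CPM in the lines (SD, n = 12). St13, the Hsp70-interacting protein Hip, had 129 and 130 CPM against 306 ± 47.3 CPM, and Ahsa1, the activator of the Hsp90 ATPase, 134 and 178 CPM against 326 ± 49.1 CPM. Of 16 mitochondrial folding partners and proteases 6 were lower and 0 higher (median -0.46). The lower ones include the inner membrane protease Yme1l1 with a log2 fold change of -1.13 and the import channel Timm23 with -0.98. Grpel1, the nucleotide exchange factor of Hspa9, was at -0.88. Of 23 ER folding enzymes and partners 1 was lower, the oxidase Ero1l (-1.36, adjusted p = 0.0245), and 0 were higher (median -0.30). Sdf2 (0.60, adjusted p = 0.0551) and Manf (-0.80, adjusted p = 0.0562) were next. Of 11 ER stress regulators 1 was lower, the phosphatase subunit Ppp1r15a (-1.29, adjusted p = 0.0448), and 0 higher (median -0.33). Edem1 (-0.60) and Atf4 (-0.53) were not called. Of 16 immediate early genes, which can rise while tissue is handled, 0 were lower and 2 higher, Dusp1 (2.86) and Fos (2.56), and Jund (-0.75) was next without a call.

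Summed over its members in TMM-scaled RPKM, each compartment was lower in both lymphomas than in any line. The cytosolic sum was 2707 RPKM in the ASNase lymphoma and 2977 RPKM in the vehicle lymphoma, against 4101 RPKM in the lowest line (504) and 5701 RPKM in the highest (115). The mitochondrial sum was 481 and 547 RPKM, against 789 RPKM (524) to 1496 RPKM (115), and the ER sum 298 and 328 RPKM, against 340 RPKM (517) to 742 RPKM (688). On the log2 scale the mean of the lymphomas over the mean of the lines was -1.18 for mitochondria, -0.83 for the cytosol and -0.61 for the ER, as values with no test. The balance between compartments overlapped between lymphomas and lines: mitochondrial over cytosolic chaperones was 0.178 and 0.184, against 0.165 to 0.278, and ER over cytosolic ones 0.110 and 0.110, against 0.0692 to 0.141. The 82 genes took 1.43% of all counts in the ASNase lymphoma and 1.53% in the vehicle lymphoma, against 1.95% to 2.71% in the lines. In such shares of raw counts, without TMM scaling, the ER genes overlapped, with 0.144% and 0.152% against 0.146% to 0.283%.

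**Figure D3:**
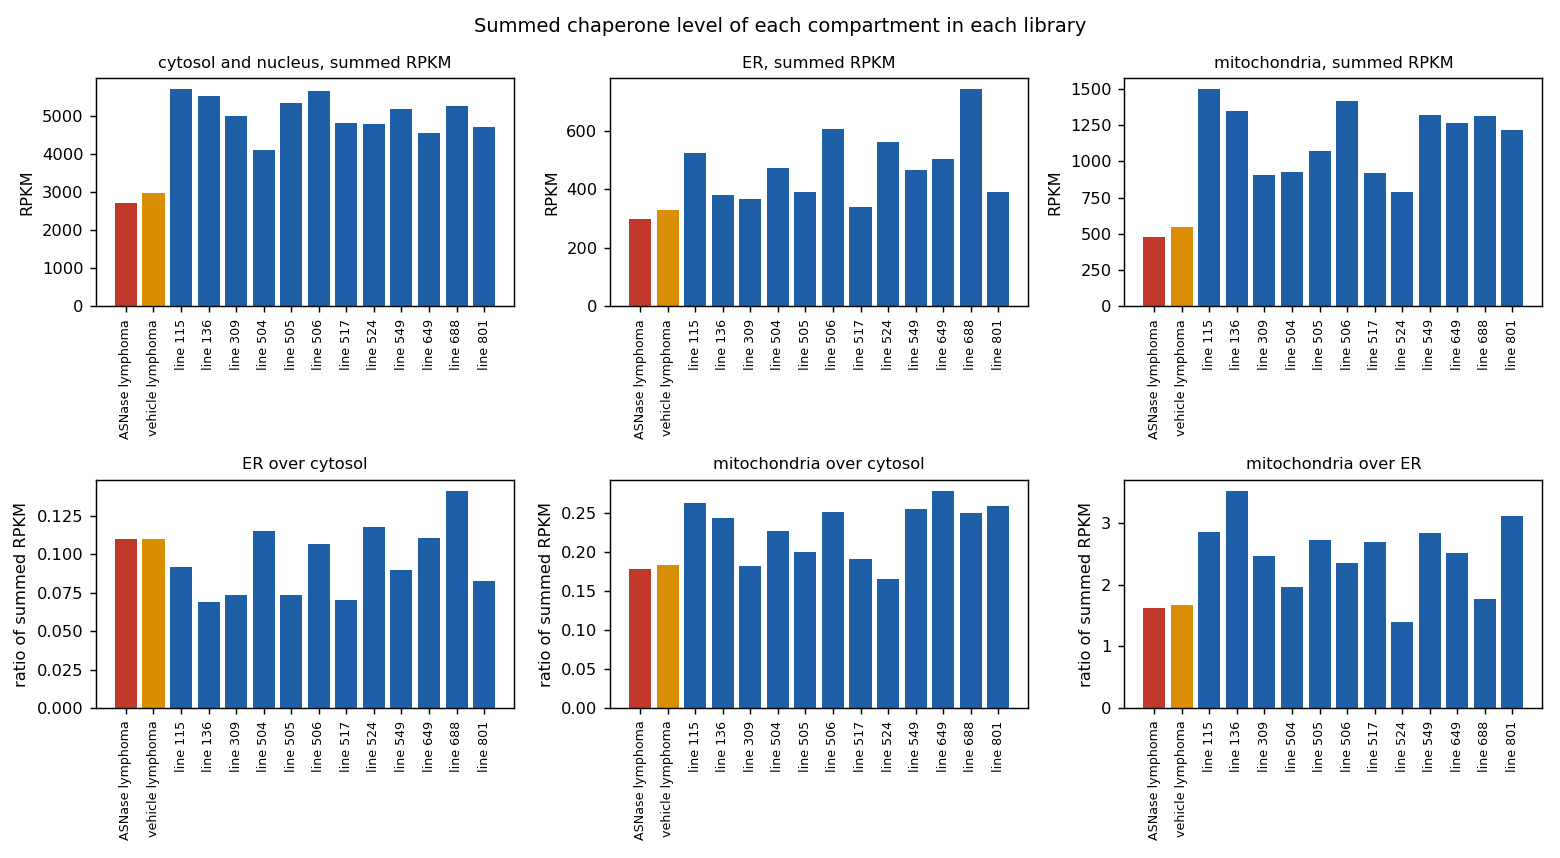
Summed RPKM of the cytosolic, ER and mitochondrial chaperones in each library, and the ratios between compartments, with the lymphomas left of the 12 lines. Each sum is lower in both lymphomas than in the lowest line, while the 3 ratios of the lymphomas lie inside the range of the lines.

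Both lymphomas came from line 506, so each was also set against that library alone. These are pairs of single libraries with no replicate check, and a gene was counted where the log2 ratio was at least 1 in size with 5 CPM or more in either library. With ASNase 21 of 60 genes over the floor were lower and 2 higher, against 12% of all genes lower and 16.5% higher. With vehicle 20 of 60 were lower and 4 higher, against 12.2% lower and 17.6% higher. By compartment, with ASNase 15 of 31 cytosolic, 4 of 8 mitochondrial and 2 of 13 ER genes were lower, with median log2 ratios of -0.88, -1.13 and -0.21. With vehicle these were 14 of 31, 4 of 8 and 1 of 12, with medians of -0.95, -0.75 and -0.44. The chief ER chaperones were among the lower values of their compartment. Hsp90b1 was at 469 CPM in the ASNase and 576 CPM in the vehicle lymphoma, against 1252 CPM in line 506 (log2 ratios of -1.42 and -1.12). Hspa5 was at 314 and 359 CPM, against 696 CPM (log2 ratios of -1.15 and -0.96). Line 506 had the second highest Hsp90b1 and the third highest Hspa5 of the lines. The log2 ratios of Hspd1 were -1.86 and -1.69, those of Hspe1 -1.34 and -1.003, and those of Hsp90aa1 -1.55 and -1.47. Hspa12a, a distant Hsp70 relative, and Dnajc4 were higher in both pairs: Hspa12a had 24.0 and 30.1 CPM against 4.62 CPM.

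Line 506 was also compared with the other 11 lines, as 1 library that is taken to vary as they do. Few genes of any kind passed such a test, so it says little about the chaperones. edgeR called 0 of 10698 genes (0%) and DESeq2 19, among them 0 chaperones, and at an unadjusted p under 0.05 edgeR had 65 genes, again with 0 chaperones. Tcp1, Hsph1, Hsp90ab1 and Cct2 were highest in this line among the 12. The smallest unadjusted p of the set was that of Tcp1, with 1032 CPM in line 506 and 861 CPM as the mean of the others (p = 0.146 in edgeR's quasi-likelihood test).

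ASNase and vehicle were compared in 1 lymphoma each, so differences between the treatments and between the 2 mice cannot be told apart. Of 59 chaperone genes at 5 CPM or more in either lymphoma, 3 were past the fold, all lower with ASNase, and 0 higher. Over all genes 1.99% were lower and 2.7% higher. Hsph1 had 41.5 CPM with ASNase and 94.7 CPM with vehicle, a ratio of 0.439 (exact 95% interval 0.410 to 0.469, counting error only). All 16 immediate early genes were lower with ASNase as well, at a sum of 333 CPM against 588 CPM with vehicle, and their part in the Hsph1 value was not tested. Dnajb2, a J protein that directs clients to the proteasome, had 3.07 and 7.02 CPM (ratio 0.438, 0.339 to 0.561). Hspa12b, a relative of Hsp70 known from endothelial cells, had 2.34 and 5.28 CPM (ratio 0.443, 0.330 to 0.589). In the lines Hspa12b ran from 0 to 11.9 CPM. The summed endothelial markers were also lower with ASNase, at 170 CPM against 246 CPM with vehicle. Most of that sum was Pecam1 (116 and 156 CPM), which the lines hold at 26.4 to 155 CPM. The part of endothelial cells in the Hspa12b value was not tested.

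The rest of the set differed little between the lymphomas. The median log2 ratio of ASNase over vehicle was -0.08 over the 59 genes and -0.05 over all genes. The larger shifts short of the fold went both ways. Hspa2 had a log2 ratio of -0.80, Hspa8 of -0.73, Hsf1 of -0.58 and Dnaja3 of -0.56. Higher with ASNase were Dnajb14 at 0.62, Hspa4l at 0.55, Dnajc25 at 0.54 and Dnajb4 at 0.52. All 8 mitochondrial genes over the floor were lower with ASNase, by a median of -0.28 and at most -0.56, where 5836 of all 10561 genes over the floor were lower. Among them were Hspd1 at -0.17 and Hspe1 at -0.33. In the ER 5 of 13 were lower, with a median of 0.13. Hsp90b1 stood at -0.30 and Hspa5 at -0.19, whereas Dnajc10, a reductase of the ER with a J domain, stood at 0.44.

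**Figure D4:**
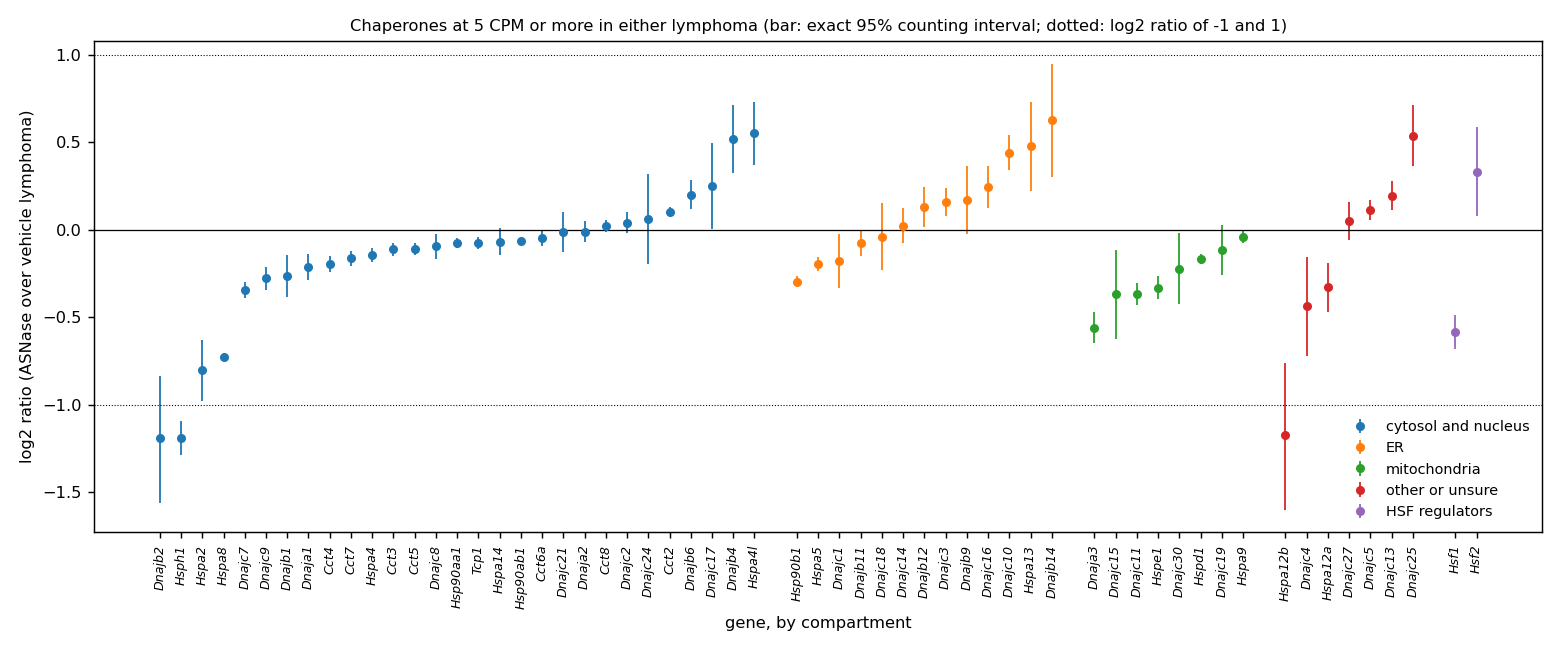
Log2 ratio of the ASNase over the vehicle lymphoma for the 59 chaperone genes at 5 CPM or more in either, with exact 95% counting intervals and dotted lines at -1 and 1. Hsph1, Dnajb2 and Hspa12b lie under -1, and the 8 mitochondrial genes lie under 0.

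Among the cultured lines the chaperones had a lower median spread than all genes. Among genes with a mean log2 CPM of 3 or more, the median SD of log2 CPM over the 12 lines was 0.246 for 54 chaperones and 0.320 for 8586 genes in all. It was 0.202 for the cytosolic, 0.282 for the mitochondrial and 0.305 for the ER genes, as a description with no test. The sets were not matched for level. Over the 2435 genes with a mean of at least 100 CPM over the 14 libraries the median SD among the lines was 0.277. The most variable was Hspa12a (SD 1.499), with 0.897 CPM in line 504, a median of 14.7 CPM and 39.4 CPM in line 649. Hspa4l, an Hsp110 gene known from the testis, ran from 4.54 CPM in line 505 to 47.0 CPM in line 801 (SD 1.01), and Dnajb4 from 4.06 CPM in line 309 to 50.0 CPM in line 524 (SD 0.97). Dnajc25 (SD 0.70), Dnajc15 (0.60), which belongs to the import motor of the inner membrane, Hsf2 (0.51) and Dnajb9 (0.49), a target of the ER stress response, came next. Hspd1, with an SD of 0.48, was the only one of these 8 with a mean above 100 CPM. Lines 504, 524, 309 and 517 had 911 to 1163 CPM of Hspd1, line 505 had 1445 CPM, and the other 7 lines had 1857 to 2215 CPM.

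**Figure D5:**
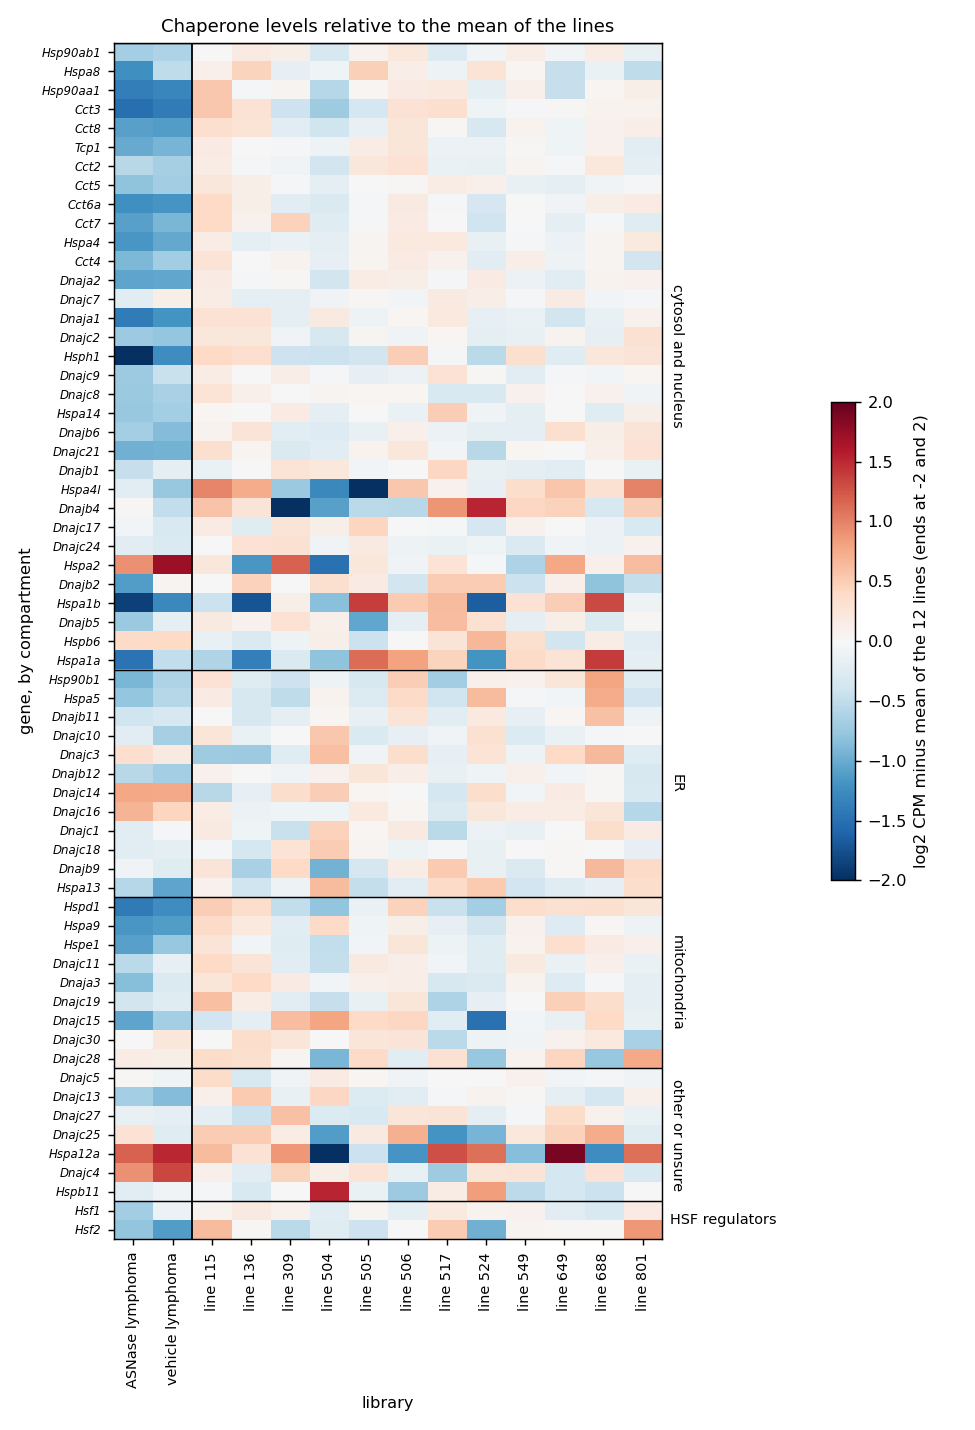
Log2 CPM minus the mean of the 12 lines for the 63 chaperone genes that pass the low-count filter on the lines alone, by compartment and, within it, by level, with the lymphomas left of the lines. The cytosolic genes at the top and Hspd1, Hspa9 and Hspe1 are low in both lymphomas, while Hspa12a, Hspa1b, Hspa4l and Dnajb4 vary widely among the lines.

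Relations across the 12 lines were computed for 9 pairs with 100000 permutations, two-sided, adjusted over the pairs. The pairs were chosen with earlier results of these data known, and the adjustment covers these 9 only. Hspd1 and Hspe1 varied together (Pearson r = 0.896, permutation adjusted p = 0.00027, Spearman rho = 0.776, adjusted p = 0.00992), and r was 0.809 without lines 504 and 524, the farthest from the median. They share a start region and 112 exon bases, and the part of reads from those bases was not tested. Hspd1 also followed Myc (r = 0.744, permutation adjusted p = 0.00996, rho = 0.818, adjusted p = 0.00651, and r = 0.774 without the same lines). The ER pair Hspa5 and Hsp90b1 had r = 0.852 (permutation adjusted p = 0.00234, rho = 0.881, adjusted p = 0.00225, and r = 0.888 without lines 688 and 524). Hspa5 and Xbp1, a factor of the unfolded protein response, had r = 0.725 (permutation adjusted p = 0.0162, rho = 0.811, adjusted p = 0.00651, and r = 0.627 without those lines).

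The other 5 pairs involved a cytosolic gene. Hsp90aa1 and Hsph1 had r = 0.629 (permutation adjusted p = 0.0461) and rho = 0.629 (adjusted p = 0.0582), with r = 0.540 without lines 504 and 649. Hsp90aa1 and Hsf1 had r = 0.484 (permutation adjusted p = 0.174, rho = 0.427, adjusted p = 0.254), which was 0.0361 without those lines and thus rested on them. No relation passed the adjustment between the TRiC subunits Tcp1 and Cct5 (r = 0.266, permutation adjusted p = 0.517, rho = 0.189, adjusted p = 0.561), between compartments for Hsp90aa1 and Hspa5 (r = -0.09, permutation adjusted p = 0.871, rho = -0.196, adjusted p = 0.561) or for Hspa8 and Hspd1 (r = -0.05, permutation adjusted p = 0.871, rho = 0.196, adjusted p = 0.561). Without the 2 farthest lines these were 0.275, -0.129 and 0.0793. The labels give no batch, and all points share the counting and scaling of their libraries.

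At the bottom of the range 12 of the 82 genes were not tested: Cct6b, Cct8l1, Dnajb3, Dnajb7, Dnajb8, Dnajc6, Dnajc22, Hspa1l, Hspb2, Hspb3, Hspb7 and Hspb9. None exceeded 9 counts in a library, and Dnajb3 and Dnajb8 had no count in any of the 14.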

How the data were processed

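RNA was made into stranded mRNA libraries (TruSeq) and sequenced as read pairs of 75 bases on a NextSeq, per the labels' protocols. The submitters' processing notes name STAR (version 2.4.0), featureCounts (Subread version 1.5.0-p3) and the build mm10 (GRCm38). The deposited values are raw counts per gene, with gene coordinates of that build. How strand and reads with several matches were handled is not stated in the sources used here.

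Each of the 14 columns matched 1 sample's title, and 100 spike-in and phage entries were dropped before scaling. Counts were analysed with edgeR 4.0.16 (filterByExpr, TMM, glmQLFit and glmQLFTest), limma 3.58.1 and, as an alternative, DESeq2 1.42.0 in R 4.3.3, and with scipy 1.17.1 and matplotlib 3.10.9 in Python 3.11.15. The fit had 3 groups (12, 1 and 1 libraries) and 11 residual degrees of freedom, all from the lines, and the contrast was the lymphomas' mean minus that of the lines. The 2 lymphomas share an origin in line 506 and are not independent, and p-values take each to vary as the lines do. Log2 CPM used a prior count of 2. Intervals cover counting error only. Promoter sequences are from RefSeq, and 67 of the 82 genes matched. Alternatives were other scalings, filters and tests, and fits without a lymphoma or line 506.

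The genes, lists and pairs were chosen with earlier results of these data known. Values are given for Hspd1, Hspe1 and the heat shock factors, up to 10 calls each way by adjusted p, the 3 highest genes of each compartment, the 8 most variable among lines, those past the fold between lymphomas, and 3 genes per pathway list. Other members were named after their values were seen.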

Additional observations from a re-analysis of the deposited data

How the results depend on the processing

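Each treatment has 1 lymphoma, and all tests rest on the spread of the lines, while 12 chaperone genes with at most 9 counts in every library were too low to test at this depth. Of 70 chaperone genes, 27 were called lower and 2 higher in the lymphomas. With DESeq2's size factors in edgeR these counts were 27 and 3, without a low-count filter 27 and 3, with DESeq2 29 and 3, and with total count scaling 21 and 3, where the median log2 fold change of all genes was 0.21 and that of the 70 genes -0.37. Scaled to the pan-B cell markers, 14 were lower and 0 higher, the medians were -1.05 for all genes and -1.68 for the 70, and Dnajc14 was at -0.28 in place of 0.74. Among the pan-B cell markers, Ly6d ran from 0 to 144 CPM and Blk from 0.0381 to 136 CPM in the lines. Pax5 ran only from 445 to 692 CPM. Blk had 0.272 CPM in line 506, against 18.0 and 51.0 CPM in the ASNase and vehicle lymphomas. The part of such uneven markers in the shifts under that scaling was not tested. The cause of the shifts under total count scaling was not tested either. Leaving out 1 library gave 16 to 27 lower and 0 to 2 higher. The lowest count was that without the ASNase lymphoma, 21 were lower without the vehicle lymphoma, and 27 without line 506. In these 8 alternatives no other called gene changed sign.

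Between the lymphomas 3 genes were past the fold, against 1 at a floor of 20 CPM and 11 at a log2 ratio of at least 0.5. For the vehicle lymphoma against line 506, 24 genes were past the fold, and 14 with total count scaling. The log2 ratio of the cytosolic sum was -0.83, and -0.60 with total count scaling. No paired analysis was possible because the lymphomas and the lines share 1 number only, 506, with 1 library per treatment.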
